A study of Schizosaccharomyces pombe with 9 samples.

Results

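Called T-to-C positions in the 5' untranslated regions (5'UTRs, or leaders) of fission yeast (Schizosaccharomyces pombe) mRNAs were examined in PAR-CLIP libraries of TAP-tagged Clr3, a histone deacetylase of the SHREC silencing complex. A called position was a member when it lay on the sense strand in an exon between the annotated transcript start and the start codon of a protein-coding gene, and outside any rRNA, tRNA, snRNA or snoRNA on the same strand. The members were 731 of 11108 distinct nuclear positions called in any of the 3 libraries. Crosslinked replicate 1 held 422 of 6560, crosslinked replicate 2 held 306 of 4742, and the library without crosslinking held 5 of 127.

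The cells of the 3 libraries shared 1 genotype, in which clr3-3HA-TAP::kan MX supplied the tagged protein. The background was h+ with ura4-delta18, leu1-32 and ade6-M216, plus a ura4+ insertion written imr1R(NcoI)::ura4+. Their medium held 10 mg/l uracil and 4% glucose. They took up the uridine analogue 4-thiouracil at 30 °C, at 100 µM and then, after a further 900 µM, for 4 h. The crosslinked cells received 12 J/cm2 of light at 365 nm. RNase T1, which cuts after G, trimmed the RNA on the beads. The control is known as such from its title and the series design, since its protocol text is that of the crosslinked samples. No library from untagged cells was among those analysed, so contacts of Clr3 cannot be told apart from those of other proteins recovered on the beads. The 3 wild-type and 3 seb1-1 RNA-seq samples of the series were not analysed here.

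A leader is the stretch of mRNA that the small ribosomal subunit enters at the cap and scans until it meets a start codon. Long leaders are a known feature of some regulatory genes, and upstream open reading frames in a leader can hold back translation. Clr3 acts on chromatin, and in PAR-CLIP a nucleotide in contact with protein is read as a T-to-C change, since a 4-thiouridine joined to protein is copied as though it were C. For each position the tables give m, the reads with the change, and r, the reads covering it. They also give an occupancy, which is m divided by a whole number. That number, m/occ, was the same in each library at the positions the libraries shared. It is read here as the depth of a reference library that the sources used here do not name, and is called the reference depth.

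The windows below show the leaders that the results turn on, 21 nt each on the sense strand, with the called T as the capital. They are the position called in both crosslinked libraries (gls2), leading positions of each crosslinked library, and the position shared with the control (hht1). Coordinates are those of the deposited tables (ASM294v2) and the letters are from RefSeq (ASM294v3), where each called nuclear position of the 3 libraries was a T on its strand.
gls2, I:1803037-1803057, minus strand: ctggagtagaTgcgaattgta
tdh1, II:2807622-2807642, plus strand: tacacttgatTcaaaatggca
pgk1, II:4159416-4159436, minus strand: aatcaatcaaTcacataacca
tpx1, III:2085616-2085636, minus strand: tccatatcatTaatctataat
ssa2, III:2057085-2057105, plus strand: aataaatcatTttccttatag
pma1, I:3876050-3876070, minus strand: tctcgttagcTactgttcgat
ole1, III:1394829-1394849, minus strand: caaagacgatTcccaactgta
hht1, I:4699801-4699821, plus strand: ttgatattcaTtctactagct
In tdh1 the called T lay 5 nt before the A of the start codon, whose letters stand near the 3' end of the window. The tpx1 and pgk1 positions lay 12 and 10 nt before theirs, while those of pma1, ole1 and ssa2 lay in the upstream part of longer leaders.

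Leaders carried a small and similar part of the calls in both crosslinked libraries. They held 6.44% ± 0.0142 of nuclear sites and 3.48% ± 0.2 of nuclear conversions (SD, n = 2). In crosslinked replicate 1 these were 6.43% of sites (Wilson 95% interval 5.86 to 7.05) and 618 of 18539 conversions. In crosslinked replicate 2 they were 6.45% (5.79 to 7.19) and 386 of 10672. Without crosslinking, leaders held 3.94% of sites (1.69 to 8.89) and 1.13% of conversions (0.615 to 2.07), or 10 of 885. Intervals cover counting error alone, and no test was made between the conditions, since with 2 libraries and 1 the smallest exact p is 1 in 3. Over all T positions of leaders, coding sequences and 3'UTRs, the density was 12.5 ± 2.82, 18.0 ± 3.6 and 7.76 ± 2.39 called sites per 10000 T. Leaders lay between the other parts in each crosslinked library. These densities were not corrected for RNA abundance, and no test was made between the parts.

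Most leader calls rested on 1 converted read. In crosslinked replicate 1, 276 of the 422 sites had 1 conversion, and in crosslinked replicate 2, 239 of 306, and each of these had exactly 3 reads. The control had none of this kind. In the crosslinked libraries the deposited p of these calls was 0.00467 and 0.00463, where the highest of any listed call was 0.00499. Equal counts had a higher deposited p in the control: 2 of 31 reads gave 0.00287 there and 0.00127 in crosslinked replicate 1. Whether a call of 1 in 3 could pass in the control was not tested. Numbers of sites with and without crosslinking thus rest on unlike call limits. Sites with at least 2 conversions numbered 146 and 67 in the crosslinked libraries and 5 in the control. They held 4.62% (3.94 to 5.41) and 4.05% (3.2 to 5.12) of the nuclear sites of that kind, against 3.94% in the control, where each call met it. At that threshold the intervals of the libraries overlapped. The highest m at a leader position was 7 and 4 in the crosslinked libraries and 2 without crosslinking, against 51, 35 and 9 in coding sequences. Because of the calls of 1 read in 3, the median conversion m/r over all leader sites was 33.3% in both crosslinked libraries. Over sites with at least 2 conversions it was 5.88% (quartiles 3.46 and 11.9) and 6.9% (3.93 and 12.9), with median r of 34.0 and 29.0 reads. Coding sites of that kind had medians of 4.35% and 4.76%, at 48.0 and 44.0 reads. The 5 control sites ran from 6.45% to 40%, at 5 to 31 reads.

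Called positions were spread along the leader. Distances in the text are nt downstream of the first transcript base or upstream of the A of the start codon. The median spliced distance was 127.0 nt from the transcript start in crosslinked replicate 1 and 122.0 nt in crosslinked replicate 2, and 135.0 and 129.5 nt from the start codon. Over all 291055 T positions of annotated leaders the medians were 146.0 nt and 133.0 nt. As a share of leader length the sites sat at a median of 49.1% and 48.0% from the start, against 52.4% for all leader T. Sites with at least 2 conversions had medians of 113.0 and 98.0 nt from the transcript start and 127.0 and 152.0 nt from the start codon.

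Next to the start codon, leader sites made up a larger share than leader T did. In the last 10 nt before it lay 9.0% and 10.5% of sites, or 38 and 32, against 4.75% of leader T. Of the sites with at least 2 conversions, 18 (12.3%) and 11 (16.4%) lay there, and none of the 5 control sites did. Within 30 nt the shares were 19.4% (15.9 to 23.5) and 22.2% (17.9 to 27.2), against 15% of leader T, and those with at least 2 conversions gave 25.3% (19.0 to 33.0) and 28.4% (19.0 to 40.1). At the other end, the 11 to 30 nt bin from the transcript start held 10.9% and 13.7% of sites, against 8.92% of leader T. The 1 to 10 nt bin there held 2.61% and 2.29%, against 3.26%. These shares were not weighted by RNA abundance, and no test was made. The 29 sites with at least 2 conversions in the last 10 nt included tdh1, rps13, rpl3401 and htb1 in crosslinked replicate 1, and pgk1, rps2, rpl1001 and tpx1 in crosslinked replicate 2. Leaders of htb1 and tpx1 have 125 and 105 nt. Those of the other named genes have 31 to 52 nt, so sites there are also near the transcript start.

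**Figure D1:**
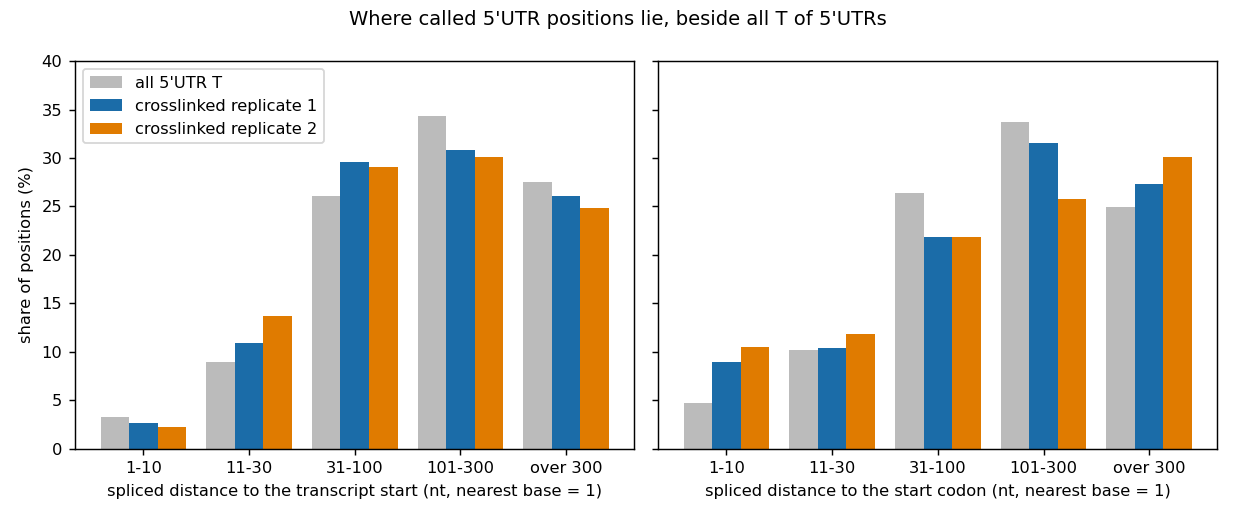
Share of positions (%) in bins of spliced distance to the transcript start (left) and to the start codon (right), for all T of annotated 5'UTRs (grey) and for the 422 and 306 called positions of the crosslinked libraries. In the last 10 nt before the start codon lay 9.0% and 10.5% of sites and 4.75% of T.

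Sites were seen more often in genes with long leaders. Of 5113 protein-coding genes, 4512 had an annotated leader, with a median of 97.0 nt. A leader site was called in 343 of them in crosslinked replicate 1 (7.60%), in 253 in crosslinked replicate 2 (5.61%), in 528 in either (11.7%) and in 68 in both (1.51%). The last count is 19.8% of the genes of crosslinked replicate 1 and 26.9% of those of crosslinked replicate 2. With at least 2 conversions in each, 19 genes remained (0.421%). The control had sites in 5 genes (0.111%). Genes with a site in both had a median leader of 524.5 nt. Of 1367 genes with leaders of up to 50 nt, 1 had a site in both, against 20 of 67 genes with leaders over 1000 nt (29.9%). A long leader holds more T positions, so these counts do not compare densities. Most genes had a single site: 294 of 343 and 218 of 253.

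**Figure D2:**
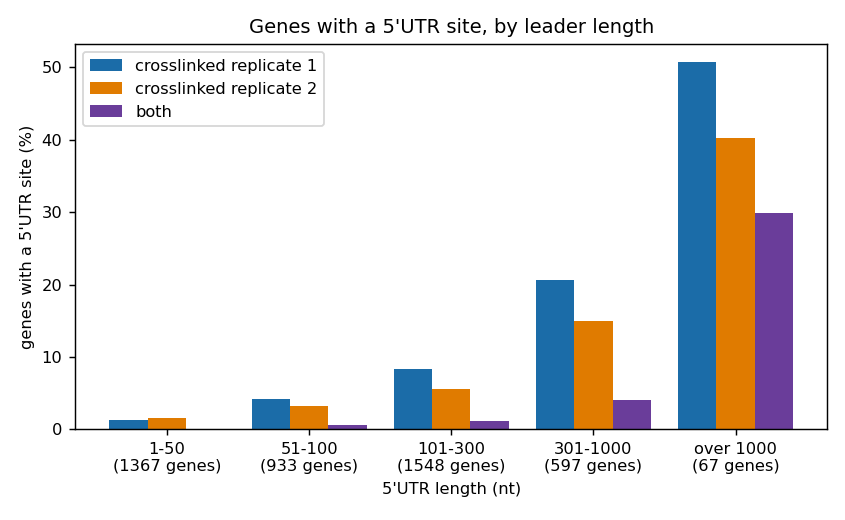
Percentage of protein-coding genes with a called 5'UTR position, by annotated 5'UTR length in nt, for each crosslinked library and for genes with a site in both. Of the 67 genes with leaders over 1000 nt, 50.7% and 40.3% had a site and 29.9% had one in both.

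The 15 genes with most leader conversions among those with sites in both crosslinked libraries included a proton pump, metabolic enzymes, chaperones, cell surface proteins and regulators of transcription. Together they held 116 of 618 leader conversions (18.8%) in crosslinked replicate 1 and 82 of 386 (21.2%) in crosslinked replicate 2. None of the 15 had a leader site in the control, where 5 of all 4512 genes with a leader had one (0.111%). So few control sites leave this absence uninformative about the 15. The 15 comprised pma1, tdh1, ssa2, ole1, bfr1, pfl2, tpx1, atd1, hsp90, knh3, bgs4, fil1, gpd1, ste11 and sod1.

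**Figure D3:**
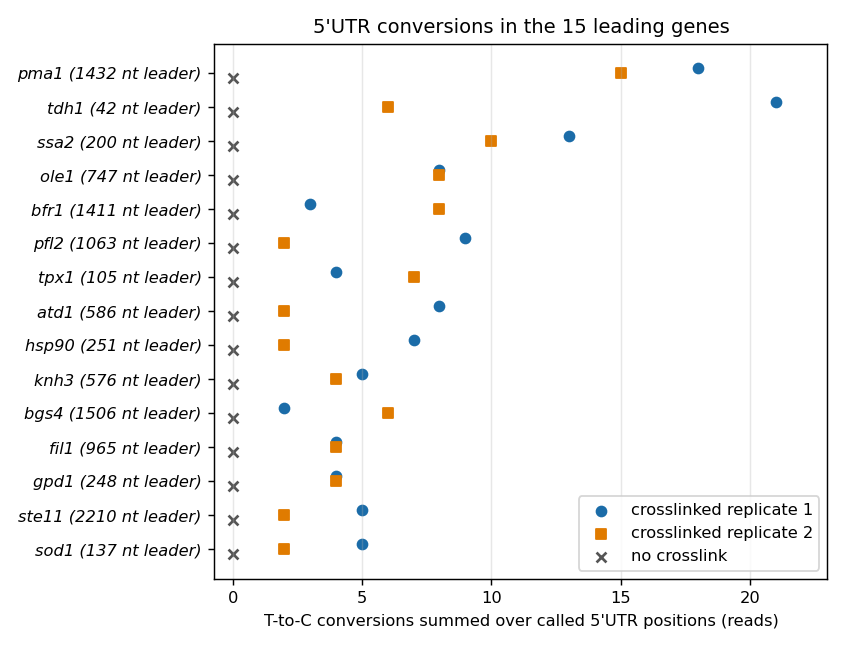
T-to-C conversions summed over the called 5'UTR positions of each of the 15 genes, in crosslinked replicate 1 (circles), crosslinked replicate 2 (squares) and the library without crosslinking (crosses). pma1 had 18, 15 and 0 conversions, and tdh1 had 21, 6 and 0.

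Among membrane and cell wall genes, pma1, the plasma membrane proton pump (I:3871642-3876111, minus strand), led. Its leader of 1432 nt, with 633 T, had 5 sites with 18 conversions in crosslinked replicate 1, 6 sites with 15 in crosslinked replicate 2 and 0 sites in the control. Each of the 11 had at least 2 conversions, yet the converted share was low, between 1.36% and 4.44% of reads. In crosslinked replicate 1 the sites lay 51, 70, 865, 1220 and 1411 nt from the transcript start, and in crosslinked replicate 2 at 464, 551, 789, 805, 996 and 1414 nt. The closest pair of the replicates, 21 and 18 nt before the start codon, had 4 conversions in 294 reads and 3 in 154. Sites near the transcript start were called in crosslinked replicate 1 alone. The replicates shared no T position in this leader, as in all leaders but that of gls2. The coding sequence of pma1, with 937 T, held 95 and 79 conversions.

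Of the other long leaders, ole1, encoding the acyl-CoA desaturase that makes unsaturated fatty acids (III:1392544-1394876, minus strand), had 3 sites with 8 conversions in each crosslinked library. These outnumbered the 3 conversions of its coding sequence in crosslinked replicate 2 but not the 21 in crosslinked replicate 1. bfr1, a brefeldin A efflux transporter, had 3 and 8 conversions in a leader of 1411 nt. pfl2, a flocculin-like surface protein, had 9 and 2 in 1063 nt, and bgs4, a catalytic subunit of glucan synthase, had 2 and 6 in 1506 nt. Which crosslinked library was higher thus differed from gene to gene. Of the membrane transport and cell wall list, 6 of 14 members with a leader had a site in both libraries (42.9%, against 1.51% of all genes with a leader). The list's median leader was 489.5 nt, against 97.0 nt. The other members with sites in both were ght8, a hexose transporter, with 3 and 1 conversions, and bgs1 and exg1 with 1 and 1 each.

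Of 14 listed genes of glycolysis and fermentation, tdh1 had most leader conversions. tdh1, glyceraldehyde-3-phosphate dehydrogenase (II:2807595-2809051, plus strand), has a leader of 42 nt with 16 T. In crosslinked replicate 1, 4 of these were called, at 30, 26, 9 and 5 nt before the start codon, with 3 conversions in 180 reads, 5 in 217, 6 in 560 and 7 in 746. In crosslinked replicate 2, 2 others were called, at 34 and 20 nt, with 2 in 59 and 4 in 129. The converted share lay between 0.938% and 3.39%, and the site with most conversions had the lowest. The control had none. pgk1, phosphoglycerate kinase, had 1 site in crosslinked replicate 2, with 4 conversions in 195 reads, and none in crosslinked replicate 1. pfk1, phosphofructokinase, had 5 conversions and tpi1, triosephosphate isomerase, had 3, both in crosslinked replicate 1 alone. eno101, enolase, had 3 and pyk1, pyruvate kinase, had 2, both in crosslinked replicate 2 alone. pgi1, glucose-6-phosphate isomerase, was the other member with sites in both, with 4 and 2 conversions. Distances to the start codon varied, from 5 nt in tdh1 to 105 nt in pyk1 and 115 nt in pgi1, whose leaders have 133 and 126 nt. Of the 14 members, 7 had a leader site in either library (50%, against 11.7% of all genes with a leader) and 2 in both (14.3%, against 1.51%). Each of the 7 had at least 2 conversions at a site (50%, against 2.88% of all genes with a leader). The list's median leader was 60.0 nt, against 97.0 nt.

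Among chaperones, ssa2, an Hsp70 (III:2057043-2059331, plus strand), had 5 sites in each crosslinked library, with 13 and 10 conversions, in a leader of 200 nt. In crosslinked replicate 1 they lay at 52, 54, 67, 95 and 199 nt from the transcript start, with 4 conversions in 33 reads, 2 in 34, 2 in 31, 2 in 31 and 3 in 128. In crosslinked replicate 2 they lay at 24, 53, 60, 144 and 182 nt, with 2 in 9, 2 in 16, 2 in 17, 2 in 54 and 2 in 29. The site at 24 nt also lay in the 3'UTR of another gene on the same strand, and the RNAs cannot be told apart there. Both libraries had sites between 52 and 67 nt, and the T at 53 nt lay between those at 52 and 54 nt. ssa1, a close relative of ssa2, had 2 conversions in crosslinked replicate 1. Reads in stretches that such copies share are uncertain. hsp90 had 7 and 2 conversions in 251 nt, and sti1, an Hsp90 co-chaperone, had 3 and 0. Of 15 list members with a leader, 6 had a site in either library (40%, against 11.7% of all genes with a leader) and 2 in both (13.3%, against 1.51%). The list's median leader was 193.0 nt, against 97.0 nt.

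Of the genes in none of the lists, tpx1, a thioredoxin peroxidase (III:2084942-2085719, minus strand), had 4 and 7 conversions in a leader of 105 nt. Its sites at 13 nt before the start codon in crosslinked replicate 1 (2 conversions in 36 reads) and at 12 nt in crosslinked replicate 2 (3 in 20) were neighbouring T positions. sod1, superoxide dismutase, had 5 and 2 conversions, and the aldehyde dehydrogenase gene atd1 had 8 and 2. gpd1, glycerol-3-phosphate dehydrogenase, had 4 and 4, and its sites lay at different positions in the replicates, as in all leaders but that of gls2. knh3, given no function in the annotation, had 5 and 4.

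**Figure D4:**
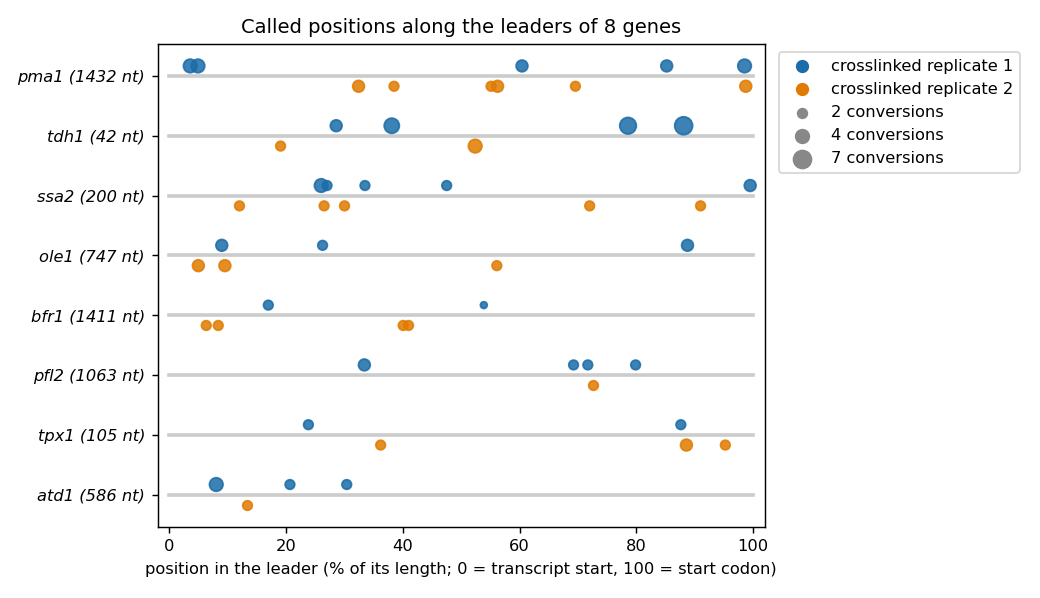
Called positions along the 5'UTRs of 8 genes, as a percentage of leader length from the transcript start to the start codon. Circle area is proportional to conversions, with crosslinked replicate 1 above each line and crosslinked replicate 2 below; the 4 tdh1 sites of replicate 1 had 3, 5, 6 and 7 conversions.

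Among the listed ribosomal protein and translation factor genes, whose leaders are mostly short, no leader had a site in both crosslinked libraries. Of all 1367 genes with leaders of up to 50 nt, 1 had a site in both (0.0732%), so this absence is not particular to these lists. Of 136 ribosomal protein genes with a leader, 9 had a site in either library (6.62%, against 11.7%) and 0 in both (0%, against 1.51%). Their median leader was 20 nt. The 9 each had a site with at least 2 conversions, a condition met by 2.88% of all genes with a leader. rps1202, rpl3401 and rps13 had 4 conversions each in crosslinked replicate 1 and none in crosslinked replicate 2, while rpl1001 and rps2 had 3 each in crosslinked replicate 2 and none in crosslinked replicate 1. The rps2 site also lay in an annotated non-coding RNA on the same strand. At rps13 the site 5 nt before the start codon had 4 conversions in 394 reads. Many ribosomal protein genes have near-identical copies that can share reads, which leaves these values uncertain. Of the 13 members with a leader of a hand-made list of translation factors, 0 had a site in either crosslinked library (against 11.7%). The list's median leader was 36 nt, against 97.0 nt. Initiation factor genes outside that list did have leader sites, found after their values were seen. They were tif5 (2 conversions in 9 reads), tif213 and tif223 (1 in 3 each) in crosslinked replicate 1, and sui1 and tif307 (1 in 3 each) in crosslinked replicate 2. The tables list called positions alone, so no upper limit can be given for these 13. Of 27 amino acid and nucleotide synthesis genes, 4 had a site in either library (14.8%, against 11.7%) and 0 in both (against 1.51%). They were met6, homoserine O-acetyltransferase, with 3 and 0 conversions, ilv5 with 0 and 2, ura3, dihydroorotate dehydrogenase, with 2 and 0, and met10 with 1 and 0.

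Among regulators, fil1, a GATA-type transcription factor (III:811690-814708, plus strand), had 2 sites with 4 conversions in each crosslinked library. Those of crosslinked replicate 1 lay 276 and 118 nt before the start codon and those of crosslinked replicate 2 at 713 and 674 nt, in a leader of 965 nt. Separate positions were not particular to fil1, since over all leaders the replicates shared 1 position. The fil1 leader has 6 upstream ATG triplets, and none of the 4 sites lay inside an open reading frame that starts at one. ste11, a transcription factor of mating and meiosis (II:3983376-3987400, plus strand), has a leader of 2210 nt with 1063 T. It had 4 sites with 5 conversions and 2 sites with 2. Of these 6 sites, 1 had at least 2 conversions. The regulator list was made of genes with long or regulated leaders, with a median of 742.0 nt against 97.0 nt, and long leaders had sites more often. It had a site in either library in 6 of 11 members (54.5%, against 11.7%) and in both in 2 (18.2%, against 1.51%). cdc13, a B-type cyclin, had 2 and 0 conversions, and cdc25, pap1 and rum1 had 1 and 0 each.

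The series title concerns transcriptional interference by non-coding RNA, for which pho1 and tgp1 are known loci in fission yeast. The leader of pho1, an acid phosphatase gene (II:4447506-4449053, plus strand), has 51 nt and 18 T. It had 1 site, 9 nt before the start codon, where crosslinked replicate 1 had 2 conversions in 58 reads, and no other library had a site in it. An annotated non-coding RNA overlaps this position on the same strand, and the RNAs cannot be told apart there. The tgp1 leader (II:350310-352411, minus strand), of 42 nt with 9 T, had 0 sites in each library. pho84, a phosphate transporter gene, had its leader site in the control alone, with 2 conversions in 5 reads, again inside a same-strand non-coding RNA. pho7, a transcription factor gene of the phosphate response, had 0 and 1 conversions. Of the 7 genes listed for the phosphate response, 3 had a site in either library (42.9%, against 11.7% of all genes with a leader) and 0 in both (against 1.51%). The 3 include snz1, with 2 and 0 conversions, which encodes an enzyme of vitamin B6 synthesis and not a phosphate gene by its product. Of 13 silencing and RNA 3' end genes with a leader, 5 had a site in either library (38.5%, against 11.7%) and 0 in both (against 1.51%). Their median leader was 136.0 nt, against 97.0 nt. clr2, mmi1, pcf11 and red1 had 1 conversion in crosslinked replicate 1 and seb1 had 1 in crosslinked replicate 2, each in 3 reads.

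Leader sites stood at positions of low reference depth. The median reference depth was 51 in crosslinked replicate 1 and 61 in crosslinked replicate 2, against 186.0 and 182.0 at coding sites and 171.5 and 212.5 at 3'UTR sites. At sites with at least 2 conversions it was 158.5 and 181.0, against 750.5 and 1456.0 in coding sequences. The reads of the PAR-CLIP library outnumbered the reference depth at 57 of 422 leader sites (13.5%) and 28 of 306 (9.15%), against 0.894% and 0.594% of coding sites. With at least 2 conversions the shares were 25.3% and 19.4%, against 1.42% and 0.664%. No test was made between the parts, whose sites lie in different genes.

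Within leaders, reference depth was lowest near the transcript start. The median over sites in the 11 to 30 nt bin from the start was 22.0 and 12.0, and over 100 and up to 300 nt from it 105.5 and 166.0. Beyond 300 nt it was lower again, 61.0 and 71.0. Over sites, reference depth and distance from the transcript start had Spearman coefficients of 0.36 (422 sites) and 0.43 (306 sites), which describe sites that share genes and libraries. Of the sites with at least 2 conversions whose reads exceeded the reference depth, 29 of 37 and 12 of 13 lay within 100 nt of the transcript start. Their median distance from it was 39.0 and 28.0 nt, against 113.0 and 98.0 nt over all leader sites with at least 2 conversions. Of all those sites, 30.8% and 37.3% lay in the 31 to 100 nt bin and 15.1% and 11.9% in the 11 to 30 nt bin. At hsp90, 45 nt from the start, r was 151 and the reference depth 2. At atd1, 47 nt from the start, they were 94 and 8. At ole1, 37 nt from the start, they were 63 and 9, and at eno101, the enolase gene, 152 and 20. In ssa2 the reference depth at the sites went from 9 at 52 nt to 2109 at 199 nt in crosslinked replicate 1, and from 7 at 24 nt to 1891 at 182 nt in crosslinked replicate 2. tdh1 had reference depths between 44 and 326 in its leader, while its coding sites had medians of 16587.5 and 51060.5. In pfl2 the 5 leader sites had between 6 and 20 and lay up to 849 nt from the start, so low depth there was not limited to the transcript end. Since the occupancy is m over this number, occupancies of leaders and coding sequences rest on unlike denominators.

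**Figure D5:**
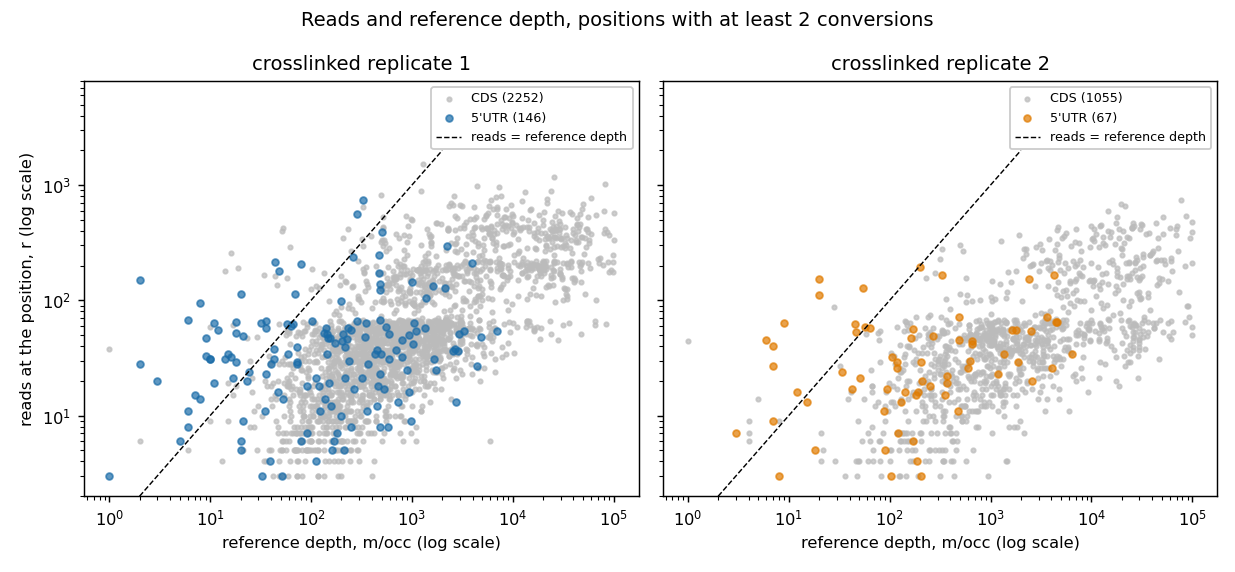
Reads r against reference depth (m/occ), both on log axes, at positions with at least 2 conversions in coding sequences (grey) and 5'UTRs (coloured), by crosslinked library. The dashed line marks equal values; 25.3% and 19.4% of 5'UTR points lie above it, against 1.42% and 0.664% of coding points.

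The crosslinked replicates called nearly separate sets of leader positions. They shared 1 position, which is 0.237% of the 422 and 0.327% of the 306. Coding sequences shared 43, or 0.961% and 1.28%, and 3'UTRs shared 7, or 1.0% and 1.56%. The shared leader position lay 64 nt before the start codon of gls2, which encodes a subunit of glucosidase II (I 1803047, minus strand), with 2 conversions in 3 reads and 1 in 3. By the two-sided Fisher exact test on reads, adjusted by Benjamini-Hochberg over the 276 nuclear positions called in both replicates, it did not pass (adjusted exact p = 1.0), nor did any of the 276 (0%). With 3 reads in each library no split of reads at gls2 could have passed, so the test says nothing about that position. Of the 276, 16 had an unadjusted p under 0.05. This test compares libraries, not conditions. At a looser scale, 21 pairs of sites lay within 10 nt of each other in the same leader, in 13 genes. They took in 16 of the 422 and 16 of the 306 sites, so some sites counted in more than 1 pair. Leaders with many sites, such as ssa2 with 5 in each library, gave several pairs. No such count is given for coding sequences or 3'UTRs, so these pairs do not show whether leader locations recur. In 15 of the 21 pairs both sites had at least 2 conversions. Those pairs were in ssa2, tdh1, tpx1, pma1, ole1, pfl2 and pgi1.

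The 5 leader positions of the control were each converted in 2 reads. They lay in pil1, an eisosome component (2 of 29 reads), but2 (2 of 31), nda3, beta-tubulin (2 of 7), pho84 (2 of 5) and hht1, a histone H3 gene (2 of 6). Histone H3 has near-identical gene copies, so reads at hht1 are uncertain. The hht1 position, I 4699811, was the leader position also called after crosslinking, with 2 conversions in 28 reads in crosslinked replicate 1. Its converted share was 7.14% (1.98 to 22.6) there and 33.3% (9.68 to 70.0) in the control, and the Fisher exact test between these libraries gave an adjusted p of 0.221. Of the 41 nuclear positions tested between them, 9 passed (22.0%), 3 with a higher converted share after crosslinking and 6 with a lower one. Of the 34 tested between crosslinked replicate 2 and the control, 11 passed (32.4%), 4 higher and 7 lower after crosslinking. None of the 34 was in a leader.

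Leader sites had A before them more often, and T runs around them less often, than other leader T. The base just 5' of the site was A in 35.3% and 33.0% of sites, against 23.8% of all leader T. The base just 3' was T in 33.9% and 35.0%, against 46.2%, and A in 29.4% and 28.8%, against 23%. Windows of 21 nt centred on the site were searched on the sense strand. TTTT was found in 30.8% (26.6 to 35.4) and 30.1% (25.2 to 35.4) of them, against 42.2% of windows around all leader T. T made up 36.9% and 36.6% of the flanking bases, against 40.6%. A G followed the site directly in 18.5% (15.1 to 22.5) and 16.7% (12.9 to 21.3), against 13.5%, and preceded it in 9.48% and 11.1%, against 12.8%. With at least 2 conversions, a G followed in 14.4% (9.6 to 21) and 13.4% (7.23 to 23.6), close to the 13.5%. TGTA was in 8.29% and 7.84% of windows against 7.81%, and GTAA in 5.21% and 4.9% against 5.8%. GTAG was in 4.27% and 2.61% against 2.52%, and TTAAAC, the motif of the meiotic RNA-binding protein Mmi1, in 3 of 422 and 4 of 306 against 0.986%. Some of these motifs can overlap, such as TGTA with GTAA or GTAG, and TTTT with TGTA or TTAAAC. Windows of 1 gene can overlap, so these shares are descriptions.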

How the data were processed

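PAR-CLIP tables of 2 crosslinked libraries and 1 library without crosslinking were used, each a list of called positions. The submitters' processing notes name Bowtie 1.1.1, SAMtools and build ASM294v2. Not given in the sources used here are the program and thresholds for calling sites and the treatment of multiply matching reads. The authors' deposited counts are converted reads (m) and covering reads (r), a reading that rests on the values, as m never exceeded r. The deposited p-value of each call reached at most 0.00499, and the deposited occupancy is a ratio of m to a whole number. The lists held 613498, 273082 and 15545 reads at 6661, 4824 and 135 positions; library depth beyond called positions is unknown, and each listed position had at least 3 reads.

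The supplied annotation (RefSeq, ASM294v3) names no leaders for active genes, so 5'UTRs were taken as mRNA exon bases before the coding sequence. All nuclear positions were T there (6560, 4742 and 127); the 101, 82 and 8 other positions were left out. A site in leaders of several genes went to the nearest start codon. Sites that also lay in another mRNA part (6 and 1) or a same-strand non-coding RNA (11 and 3) were kept. Upstream open reading frames ran from an ATG in the leader to the next in-frame stop of the spliced mRNA. Wilson 95% intervals and Fisher exact tests (threshold 0.05) were computed with scipy 1.17.1. The Fisher test alone was tried on simulated reads, drawn at greater depth than the data and with large planted changes. Its performance at the depths of the data was not tested. Genes were named by rule: the 15 with most leader conversions and sites in both crosslinked libraries, the 5 with most sites of m of at least 2, pho1, tgp1 and the leading members of 9 lists; ties between positions were ordered by the deposited p. Genes beside reads above the reference depth, gene names near the start codon and in the list of near pairs were chosen after their values were seen. Members and lists were chosen with earlier results of these data known. Whether both crosslinked libraries stem from separate cultures is not stated in the labels, and their spread may be technical.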

Additional observations from a re-analysis of the deposited data

How the results depend on the processing

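Of 70 alternative values, 43 stayed within 1 SD of the crosslinked libraries or, for counts, within 1.5 times. With 2 libraries, each always lies within 1 SD of their mean. The shares and medians with 1 crosslinked library left out were thus bound to be among the 43 and say nothing about stability. With m of at least 2, the mean number of leader sites was 106.5 in place of 364, their share 4.34% of sites and 2.1% of conversions in place of 6.44% and 3.48%, the median distances 105.5 and 139.5 nt in place of 124.5 and 132.2, the median m/r 6.39% in place of 33.3%, the median reference depth 169.8 in place of 56.0, shared positions 0 in place of 1 and genes with sites in both 19 in place of 68. With r of at least 20 these were 74, 3.71%, 1.66%, 105.2 and 126.5 nt, 4.35%, 255.8, 0 and 16. Calls of 1 read in 3 are removed by both settings. The share of sites was 6.28% without leader sites in other genes' exons or non-coding RNAs, 6.48% without control positions (3.88% of conversions) and 6.35% without pma1 (median 120.5 nt from the start). With 1 crosslinked library left out, shares of sites ranged from 6.43% to 6.45%, numbers from 306 to 422 and median reference depths from 51 to 61. The Fisher calls against the control, 9 and 11, were 0 and 0 among mRNA positions alone and 5 and 5 with Holm adjustment. No paired analysis was possible because the groups compared share fewer than 2 replicate numbers. Most leader values rest on few conversions, with m of 1 or 2 at 389 of 422 and 295 of 306 sites.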

Other observations

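Upstream open reading frames were counted beside the leader sites. They span 12.0% of leader T and held 34 of 422 sites in crosslinked replicate 1 (8.06%, Wilson 95% interval 5.82 to 11) and 20 of 306 in crosslinked replicate 2 (6.54%, 4.27 to 9.88). With at least 2 conversions the counts were 3 of 146 (2.05%, 0.701 to 5.87) and 1 of 67 (1.49%, 0.264 to 7.98). The 3 were in SPAC6F6.04c (2 conversions in 3 reads), gls2 (2 in 3) and rnc1, which encodes an RNA-binding protein (2 in 30), and the 1 was in ipk1 (2 in 11). These sites and genes were examined after their values were seen. The shares were not weighted by the abundance of the mRNAs, and no test was made.

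In leaders with an annotated intron lay 11 of 422 and 8 of 306 sites. In SPBC365.16 the leading site, II 2530205, had 4 conversions in 43 reads in crosslinked replicate 1 and lay 783 nt before the start codon, where a non-coding RNA is annotated on the same strand.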
